A study of Mus musculus with 4 samples.

Results

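The nuclear genes for subunits of the mitochondrial respiratory chain and the ATP synthase were followed in brain RNA of BCAS1 knockout (KO, BCAS1 -/-) and wildtype (WT, BCAS1 +/+) mice. A gene was included when a probe set named it alone and its symbol marked a subunit: the Ndufa, Ndufb, Ndufc, Ndufs and Ndufv symbols of complex I, Sdha to Sdhd of complex II, the Uqcr symbols and Cyc1 of complex III, Cox4 to Cox8 of complex IV, and the Atp5 symbols of complex V. Symbols starting with Ndufaf, which mark assembly factors, and pseudogenes were left out. This gave 83 genes of the 18193 named alone on the array, read by 170 probe sets of 45037. Complex I had 36 of them, complex II 4, complex III 9, complex IV 17 and complex V 17. Each gene is given by its brightest probe set over the 4 arrays. All mice were males on the C57BL/6 background, 8 to 9 weeks old, bred from heterozygous parents, with 2 KO and 2 WT mice and 1 array for each. The labels do not say how the gene was disrupted, and they name both the brain and the cerebrum as the tissue. Each level is an RMA value in log2 units, in which a difference of 1 is a doubling. No detection calls came with the values.

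The respiratory chain, in the inner mitochondrial membrane, carries electrons from NADH and succinate to oxygen and pumps protons across the membrane as it does so. The ATP synthase lets the protons flow back to make ATP. Complex I oxidises NADH, complex II oxidises succinate, complex III passes electrons from ubiquinol to cytochrome c, and complex IV hands them to oxygen. Neurons meet most of their energy demand in this way, while oligodendrocytes, the cells that make BCAS1 and the myelin sheath, are known to draw on glycolysis as well once they have matured. Most subunits are encoded in the nucleus and a few core ones in mitochondrial DNA.

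Nuclear respiratory factor 1, the ETS factor GABP and YY1 are transcription factors known to bind promoters of many of these genes. RefSeq promoter windows of build GRCm38.p6, from 250 bases before to 50 bases after a start site, were found for 67 of the 83 genes in 72 windows. The letters GCGCA followed directly by their reverse complement TGCGC, the palindrome bound by nuclear respiratory factor 1, were in 4 of these 72 windows (5.56%) and in 0.971% of all 32851 windows. The ETS core CGGAAG was in 30 windows on either strand (41.7%), against 16.9% of all windows. The YY1 core AAGATGGC was in 9 on either strand (12.5%), against 2.75%, and the TATA box letters TATAAA were in 9 on either strand (12.5%), against 13.6%. No matches of different motifs overlapped in the 72 windows (0 for each pair of motifs). These counts describe letters in a window and were not tested. The 4 windows with the palindrome are shown because they carry the strictest of these sequence features, with the palindrome in capitals, 5′ to 3′ on the gene's strand. They belong to Cox6a1 (chr5:115348909-115349208, minus strand), Uqcrc1 (chr9:108936398-108936697, plus strand), Atp5g2 (chr15:102670998-102671297, minus strand) and Atp5k (chr5:108434350-108434649, minus strand).
Cox6a1: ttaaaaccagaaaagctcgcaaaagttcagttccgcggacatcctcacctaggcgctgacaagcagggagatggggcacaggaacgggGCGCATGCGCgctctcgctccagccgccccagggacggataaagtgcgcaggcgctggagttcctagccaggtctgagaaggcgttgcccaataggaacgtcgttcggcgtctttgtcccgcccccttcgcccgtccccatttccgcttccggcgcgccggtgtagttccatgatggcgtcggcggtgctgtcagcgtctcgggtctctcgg
Uqcrc1: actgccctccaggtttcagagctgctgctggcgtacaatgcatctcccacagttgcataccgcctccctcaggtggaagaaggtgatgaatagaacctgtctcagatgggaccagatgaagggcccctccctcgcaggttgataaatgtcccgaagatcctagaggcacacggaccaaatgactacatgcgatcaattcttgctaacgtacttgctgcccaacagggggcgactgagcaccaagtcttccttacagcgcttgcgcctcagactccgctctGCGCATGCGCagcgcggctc
Atp5g2: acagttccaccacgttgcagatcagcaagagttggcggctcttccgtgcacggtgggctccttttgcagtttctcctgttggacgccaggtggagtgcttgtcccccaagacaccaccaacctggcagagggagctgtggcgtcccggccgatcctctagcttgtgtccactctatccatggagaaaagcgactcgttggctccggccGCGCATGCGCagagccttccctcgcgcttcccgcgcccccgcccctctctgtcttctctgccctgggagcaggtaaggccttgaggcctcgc
Atp5k: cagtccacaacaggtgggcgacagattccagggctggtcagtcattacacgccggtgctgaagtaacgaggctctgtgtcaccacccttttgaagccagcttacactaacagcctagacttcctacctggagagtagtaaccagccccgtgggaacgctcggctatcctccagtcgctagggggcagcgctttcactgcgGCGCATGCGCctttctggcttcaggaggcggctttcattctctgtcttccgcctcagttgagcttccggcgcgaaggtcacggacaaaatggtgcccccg
The KO minus WT difference was -0.055 for Cox6a1, 0.005 for Uqcrc1, -0.030 for Atp5g2 and -0.015 for Atp5k.

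The arrays had medians of 6.49 and 6.49 in KO and 6.51 and 6.49 in WT. Actin probe sets at the 3′ end exceeded those at the 5′ end, which tracks RNA breakdown, by 1.14 and 1.15 in KO and 1.09 and 1.12 in WT. For Gapdh the same value was near 0, at 0.07 and 0.03 in KO and 0.06 and -0.01 in WT. The brightest Bcas1 probe set measured 11.05 and 10.75 in KO, against 12.17 and 12.21 in WT, a difference of -1.29 (SE 0.12, adjusted p 0.742 in limma). Both other Bcas1 probe sets were higher in KO (0.765 and 0.64), and where any of them lies relative to the disrupted part is not given here, so the labels were not fully checked by this gene. All 10 neuron markers measured lay above the median level of all probe sets, as did all 7 mature oligodendrocyte markers. The second KO array carried transcripts of nasal mucosa: the mean log2 level of 4 such markers was 4.12 and 7.71 in KO and 4.13 and 4.44 in WT. All 5 blood cell markers had higher means in KO, with mean log2 levels of 6.42 and 6.87 in KO and 6.09 and 5.88 in WT. The widest of them were the neutrophil genes S100a9 (1.29) and S100a8 (1.17), and for 4 of the 5 both KO arrays lay above both WT arrays. All 3 pituitary markers also had higher means in KO, with 6.49 and 6.93 in KO and 6.29 and 6.43 in WT, among them Gh, growth hormone (0.71). In limma 0 markers of both lists passed the adjusted threshold, and 3 blood cell markers and 1 pituitary marker had an unadjusted p under 0.05. The part of these tissues in the respiratory chain values was not tested. With 1 bulk extract per mouse, fewer cells of a type and less RNA per cell cannot be told apart.

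No respiratory chain gene passed the test between genotypes, and the differences were small in both directions. Of the 83 genes 0 had an adjusted p under 0.05 in limma, where 0.0055% of all genes did, and 2 had an unadjusted p under 0.05, where 2.75% of all genes did. In 49 genes the mean was lower in KO, in 29 it was higher and in 5 it was equal. Over all genes 45.6% were lower in KO and 51.7% higher. The median KO minus WT difference was -0.020 on the log2 scale for the 83 genes and 0.0050 for all genes. The differences ran from -0.205 (Cox7c) to 0.195 (Ndufb4, named here after its values were seen), and 68 genes were under 0.1 in size. The typical size of the difference, a median of 0.035, lay between the median gap of 0.050 between the 2 KO mice and that of 0.020 between the 2 WT mice. The difference is between means of 2 mice and the gaps are between single mice, so their sizes are not directly comparable. For 53 genes the 95% interval of the difference lay wholly between -0.25 and 0.25, and the widest reach of any interval was -0.415 on the low side (Cox7a1) and 0.622 on the high side (Cox6b2). These intervals are from limma gene by gene and are not adjusted for the number of genes. An absent call therefore does not show that the genotypes were alike, only that larger differences lie outside these intervals.

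**Figure D1:**
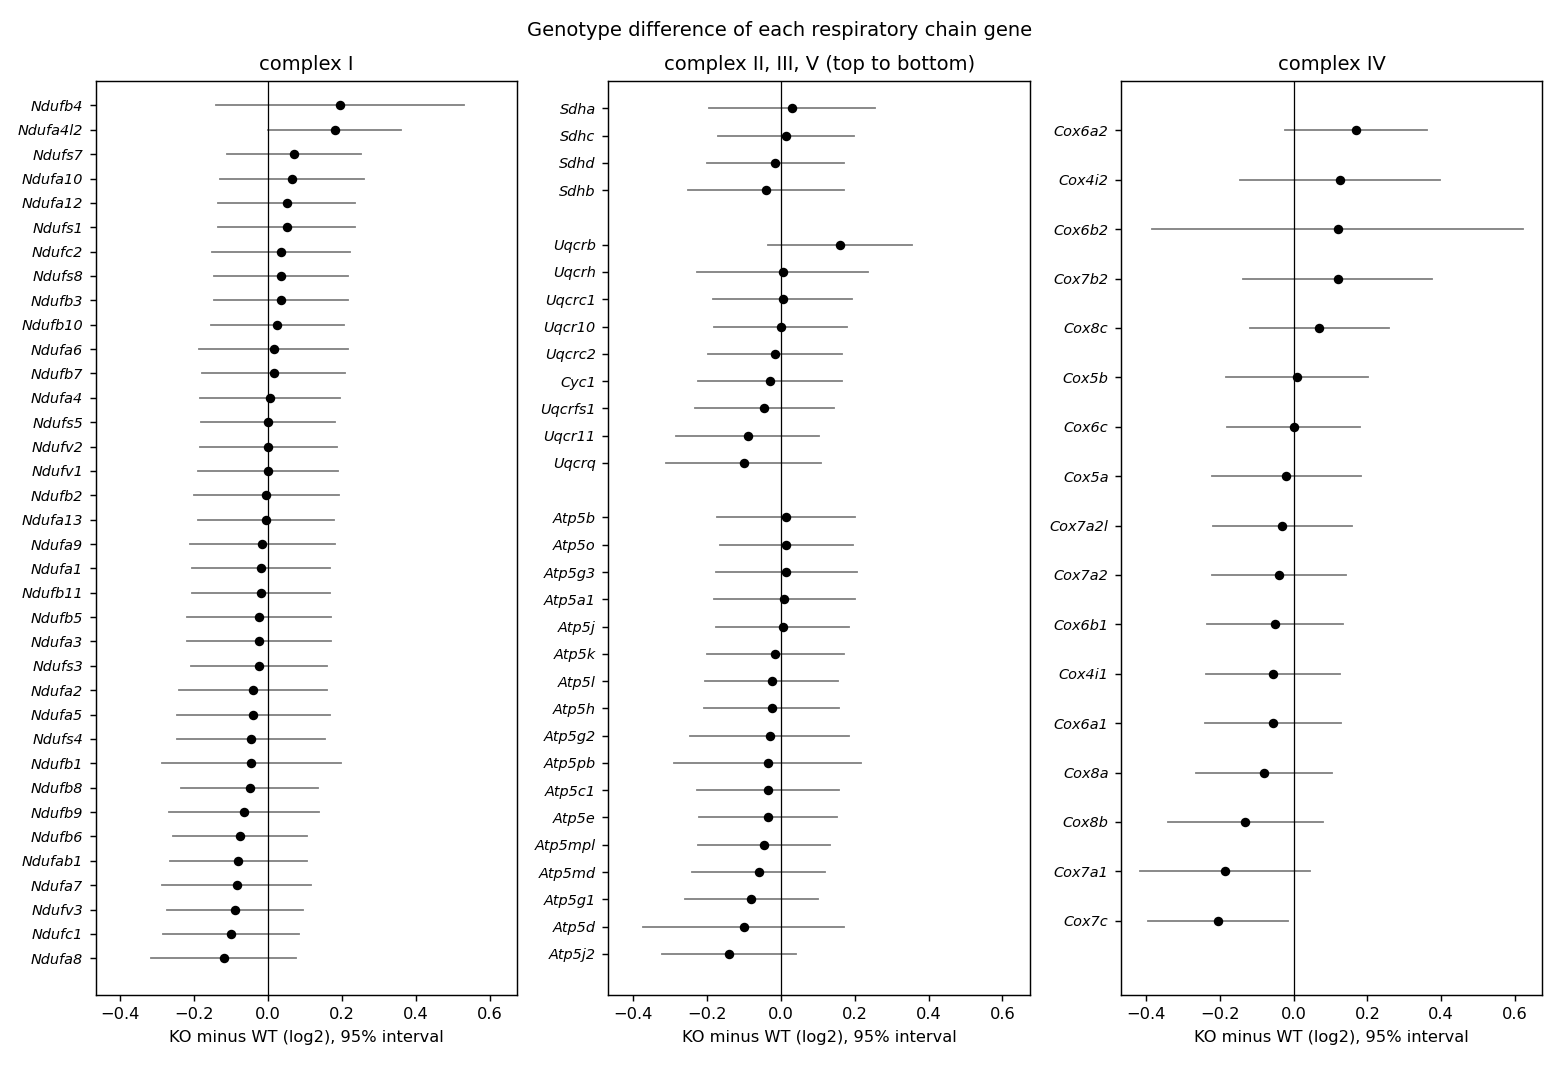
KO minus WT difference of each of the 83 genes (horizontal axis, log2 units; vertical axis, genes ordered within their complex). Points are the limma estimates from 2 KO and 2 WT arrays and lines their 95% intervals, which cross 0 for every gene except Cox7c and Ndufa4l2.

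The KO arrays lay wholly below the WT arrays for 23 genes (27.7%), where 12.8% of all genes had that order. They lay wholly above for 11 genes (13.3%), where 15.5% of all genes did, and the other 49 overlapped. Together 34 genes separated the genotypes, and 28.3% of all genes did. No test was made of these shares, since genes on 1 array vary together. The members were also brighter than the genes beside them, with a median level of 12.11 against 7.675 for all genes. Of the 77 members above the median level of all probe sets, 48 were lower in KO, 24 higher and 5 equal. Among the other 6 members 1 was lower and 5 were higher. The part of level in these shares was not tested. The first KO array was the lowest. Taking each gene against its own mean over the 4 arrays, the median over the 83 genes was -0.030 and 0.013 on the KO arrays and 0.015 and 0.015 on the WT arrays. Over all genes the same medians were -0.020 and 0.028 on the KO arrays and -0.0075 and 0.0025 on the WT arrays. The first KO array lay below both WT arrays for 49 genes (59.0%) and the second for 29 (34.9%), against 39.8% and 25.4% of all genes. Without the first KO array the median of the 83 genes was 0.0050, with 46 genes higher and 37 lower. The median of all genes then was 0.030, so the respiratory chain stood 0.025 under it, the same gap as with all 4 arrays.

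**Figure D2:**
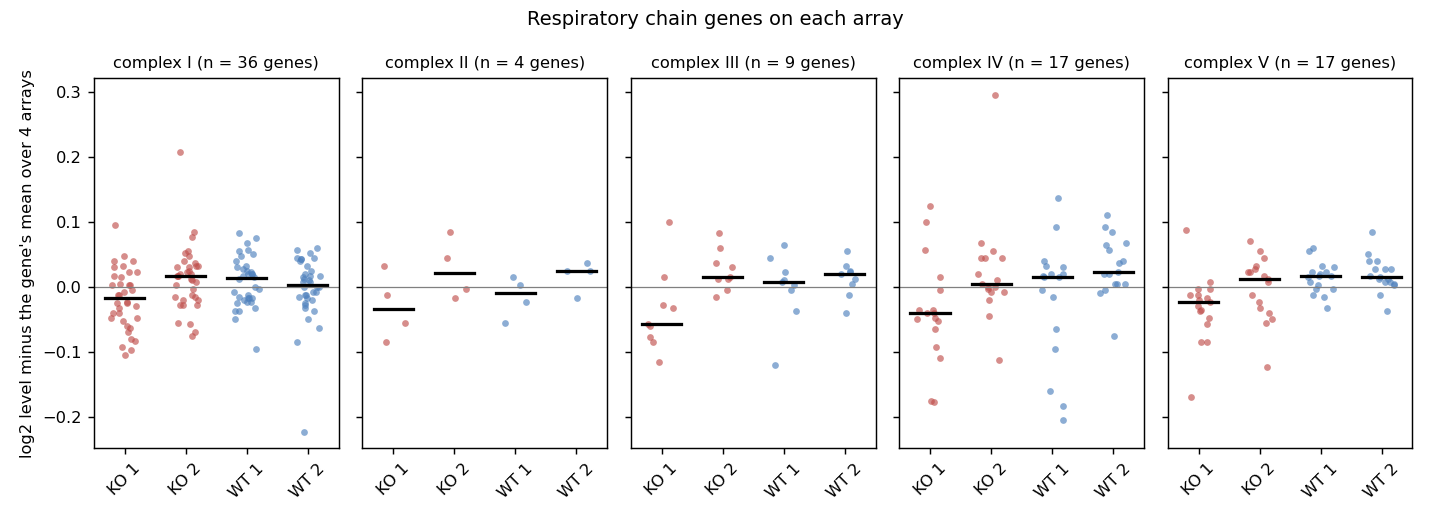
Level of each gene on each array minus that gene's mean over the 4 arrays (vertical axis, log2 units), by complex, with KO arrays in red and WT arrays in blue. Each point is 1 gene and each black line the median of a complex, which is lowest on the first KO array in all 5 complexes.

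Complex I, the entry point for electrons from NADH, had differences of both signs and 0 genes past the test. Of its 36 genes 13 were higher in KO, 20 lower and 3 equal, with a median of -0.010. Without the first KO array the sign of that median turned, to 0.010 with 22 genes higher and 14 lower, and without the second it was -0.0225. Both KO arrays lay above both WT arrays for 8 genes (22.2%; 15.5% of all genes) and below for 7 (19.4%; 12.8% of all genes). Ndufs7, an iron-sulfur subunit near the ubiquinone site, measured 11.81 and 11.80 in KO, against 11.75 and 11.72 in WT, a difference of 0.070 (SE 0.069). Both KO arrays were above both WT arrays. Ndufa8, an accessory subunit facing the intermembrane space, measured 11.66 and 11.75 in KO, against 11.84 and 11.81 in WT, a difference of -0.12 (SE 0.075). Here both KO arrays were below both WT arrays, and the first was the lowest. Among the other core subunits, Ndufv1, which holds the flavin, and Ndufv2 each had a difference of 0.000. The iron-sulfur subunits Ndufs1 and Ndufs8 differed by 0.050 and 0.035, with both KO arrays above both WT arrays, and Ndufs3 by -0.025. The brightest members, Ndufa4, Ndufa12 and Ndufa1, differed by 0.0050, 0.050 and -0.020. Ndufa4 carries a complex I name and is now known as a subunit of complex IV; counted there with Ndufa4l2, it left both medians, -0.0175 for complex I and -0.020 for complex IV, within the spread between mice. The other members with no overlap were Ndufa10, Ndufa12, Ndufb3, Ndufb10, Ndufs1, Ndufs8 and Ndufa4l2 on the higher side and Ndufa7, Ndufab1, Ndufb6, Ndufb8, Ndufc1 and Ndufv3 on the lower, and those outside the rule for named genes were named after their values were seen.

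The single Ndufb4 probe set that named the gene alone was dim and its arrays overlapped. It measured 5.36 and 5.58 in KO, against 5.40 and 5.15 in WT. Bright probe sets that named Ndufb4 together with its copies Ndufb4b and Ndufb4c, and so lie outside the 83 genes, had differences of 0.025 and 0.085. Likewise, a probe set shared by Ndufs6 and Ndufs6b had a difference of -0.0050 and the brighter one shared by Ndufa11 and Ndufa11b a difference of 0.000.

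Complex II, succinate dehydrogenase, is the only complex here built wholly from nuclear genes and is also an enzyme of the tricarboxylic acid cycle. None of its 4 genes separated the genotypes (0 with no overlap). Sdha, the flavin-bearing subunit, measured 12.22 and 12.36 in KO, against 12.22 and 12.30 in WT, a difference of 0.030 (SE 0.086). Sdhb, the iron-sulfur subunit, measured 12.17 and 12.30 in KO, against 12.27 and 12.28 in WT, a difference of -0.040 (SE 0.080). For both genes the 2 KO mice stood further apart than the genotype means. The membrane anchors Sdhc and Sdhd differed by 0.015 (SE 0.071) and -0.015 (SE 0.071).

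In complex III, Uqcrb stood highest in KO. Uqcrb, a small subunit known to help bind ubiquinone, measured 13.66 and 13.62 in KO, against 13.44 and 13.52 in WT. The difference was 0.16 (SE 0.074, adjusted p 1 in limma), a 1.12-fold level, with both KO arrays above both WT arrays. Its dimmer probe set differed by 0.115 (SE 0.10), with 11.13 and 10.91 in KO against 10.88 and 10.93 in WT, so that the arrays of the genotypes overlapped there. The catalytic subunits did not share this: Cyc1, the cytochrome c1 protein, differed by -0.030 (SE 0.074) and Uqcrfs1, the Rieske iron-sulfur protein, by -0.045 (SE 0.072). Uqcrq and Uqcr11, both accessory subunits (Uqcr11 named after its values were seen), differed by -0.10 and -0.090, with both KO arrays below both WT arrays. Of the 9 genes 3 were higher, 5 lower and 1 equal, with a median of -0.015. Without the first KO array that median was 0.0050, with 5 genes higher and 4 lower, and without the second it was -0.075.

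Complex IV, cytochrome c oxidase, held the widest difference, that of Cox7c, and its tissue isoforms differed in both signs. Among its subunits present in most tissues, Cox5b alone was higher in KO, by 0.010, the step to which the values are rounded. Of 17 genes 6 were higher in KO, 10 lower and 1 equal, with a median of -0.030. Both KO arrays lay below both WT arrays for 8 genes (47.1%; 12.8% of all genes) and above for 2 (11.8%; 15.5% of all genes). Cox7c, a small subunit, measured 7.27 and 7.25 in KO, against 7.50 and 7.43 in WT. The difference was -0.205 (SE 0.072, adjusted p 1 in limma), 1.15-fold lower in KO. Leaving out 1 array gave -0.24 to -0.17. Since the arrays of the genotypes do not overlap for Cox7c, leaving out 1 array could not turn its sign. The brightest Cox7c probe set had a mean level of only 7.36, where Cox4i1 had 13.66 and Cox7a2 13.32. How well it reads the main Cox7c transcript was not tested. The second Cox7c probe set was dimmer still, at 4.93, and differed by -0.255 (SE 0.29), with overlapping arrays. Among the subunits present in most tissues, Cox6a1 measured 14.35 and 14.40 in KO, against 14.42 and 14.44 in WT, a difference of -0.055 (SE 0.070). Cox4i1, the main regulatory subunit, measured 13.61 and 13.65 in KO, against 13.69 and 13.68 in WT, also a difference of -0.055 (SE 0.070). Cox8a, Cox6b1 and Cox7a2 differed by -0.080, -0.050 and -0.040. In each of these 5 genes both KO arrays lay below both WT arrays, and the difference of the means was smaller than its SE except for Cox8a. Cox5b differed by 0.010, and Cox7a2l, which joins complexes III and IV, by -0.030. Without the first KO array the median of complex IV was -0.0050, and without the second -0.075.

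The isoforms of complex IV best known from heart and skeletal muscle differed in sign. Cox6a2 measured 8.30 and 8.22 in KO, against 8.08 and 8.10 in WT, a difference of 0.17 (SE 0.073, adjusted p 1 in limma). Its second probe set differed by 0.145 (SE 0.11). Cox7a1 measured 6.44 and 6.61 in KO, against 6.71 and 6.71 in WT, a difference of -0.185 (SE 0.088). Without the second KO array it was -0.27 and without the first -0.10, so this value depends on which KO mouse is kept. Cox8b measured 5.97 and 6.06 in KO, against 6.10 and 6.19 in WT, a difference of -0.13 (SE 0.080). All 8 skeletal muscle markers measured had higher means in KO, with a median difference of 0.123, and 1 of them lay above the median level of all probe sets. Their mean log2 level was 5.21 and 5.48 in KO and 5.18 and 5.21 in WT, and 3 of them were under the lower quartile of probe set levels. Of 5 heart markers 1 was higher in KO and 4 lower, with means of 4.96 and 4.93 in KO and 5.06 and 5.02 in WT. The part of these markers in the values of Cox6a2, Cox7a1 and Cox8b was not tested.

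Of the isoforms known from testis or from low oxygen, Cox8c lay above the median level of all probe sets and Cox6b2, Cox4i2 and Ndufa4l2 did not. Cox8c, a testis isoform, differed by 0.070 (SE 0.072), with 8.27 and 8.31 in KO against 8.19 and 8.25 in WT. Cox6b2, also of testis, measured 6.15 and 6.62 in KO, against 6.12 and 6.41 in WT, so that its genotypes overlapped. Cox4i2, an isoform induced by low oxygen, measured 5.46 and 5.47 in KO, against 5.22 and 5.46 in WT, a difference of 0.125 (SE 0.10). Ndufa4l2, a paralogue of Ndufa4 also induced by low oxygen and known in brain from the mural cells of vessels, measured 5.98 and 5.97 in KO, against 5.79 and 5.80 in WT. Its difference was 0.18 (SE 0.068, adjusted p 1 in limma), a 1.13-fold level, and its arrays of 1 genotype lay within 0.01 of each other. All 6 vessel markers measured had higher means in KO, with a median of 0.075, among them the smooth muscle genes Tagln (0.32) and Acta2 (0.235). Their mean log2 level was 7.99 and 8.12 in KO and 7.92 and 7.92 in WT, and the part of vessel RNA in the Ndufa4l2 value was not tested.

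**Figure D3:**
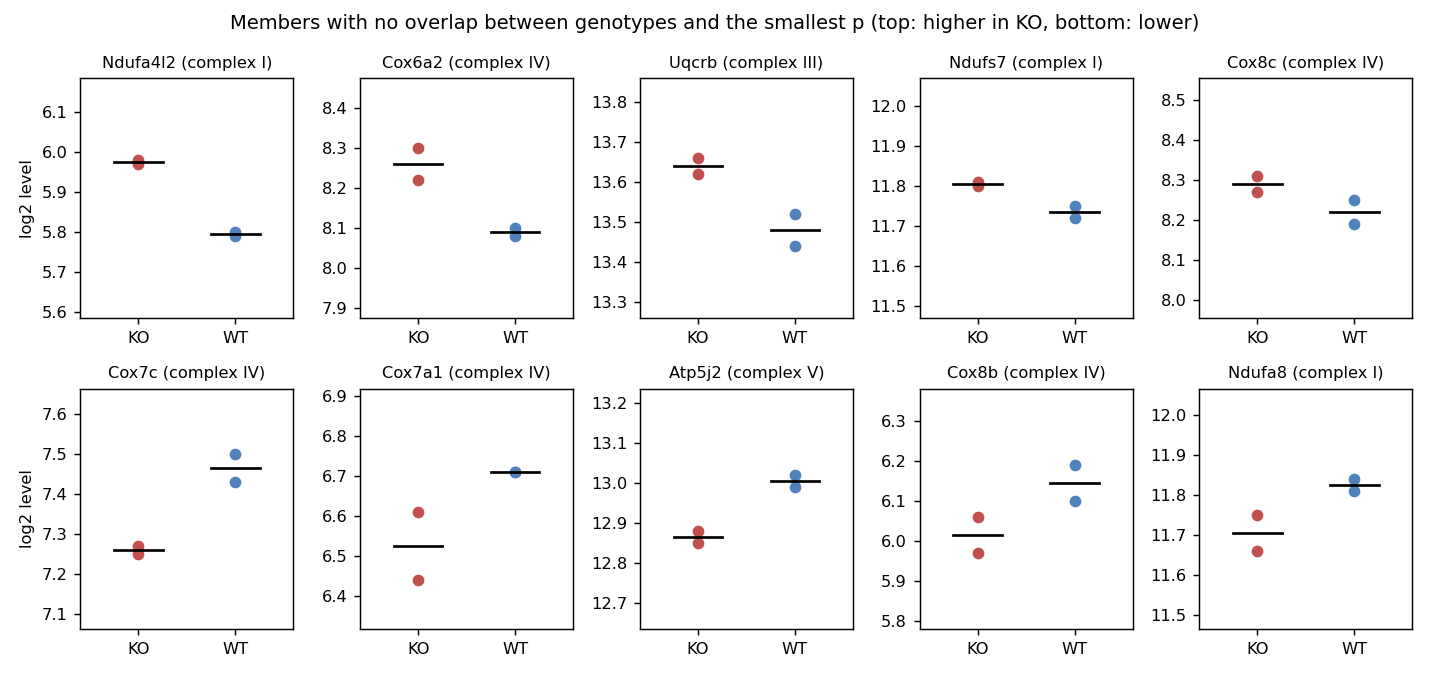
Log2 level on each array (vertical axis, 0.6 units high in every panel) of the 10 genes chosen as having no overlap between genotypes and the smallest p, 5 in each direction; KO arrays in red on the left, WT arrays in blue on the right, lines at the group means. The group means are 0.070 to 0.205 apart, and 0 of these genes passed the adjusted threshold.

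Complex V, the ATP synthase, leaned to the lower side in KO. Of its 17 genes 12 were lower and 5 higher, none of the 5 by more than 0.015, with a median of -0.030. In 5 genes (29.4%) both KO arrays were below both WT arrays, where 12.8% of all genes had that order, and in 0 genes both were above, where 15.5% of all genes did. Atp5j2, the f subunit of the membrane part, measured 12.85 and 12.88 in KO, against 12.99 and 13.02 in WT, a difference of -0.14 (SE 0.070, adjusted p 1 in limma), 1.10-fold lower in KO. Its second bright probe set measured 12.36 and 12.42 in KO, against 12.61 and 12.59 in WT, a difference of -0.21 (SE 0.071), while the dim one differed by -0.035. Both bright probe sets thus put both KO mice below both WT mice. The catalytic subunits showed no such gap. Atp5b, the beta subunit where ATP is made, measured 13.56 and 13.60 in KO, against 13.54 and 13.59 in WT, a difference of 0.015 (SE 0.071). Atp5a1, the alpha subunit, differed by 0.010 (SE 0.073). The 3 genes for the c subunit, which forms the rotating ring, differed by -0.080 (Atp5g1), -0.030 (Atp5g2) and 0.015 (Atp5g3). Without the first KO array the median of complex V was 0.0050, and without the second -0.045.

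The catalytic core list held genes of complexes I, II, III and V and no gene of complex IV. Of 14 core genes measured 7 were higher in KO, 5 lower and 2 equal, with a median of 0.0050 and a range from -0.045 (Uqcrfs1) to 0.070 (Ndufs7). Whether core and accessory subunits differ in their shift was not tested.

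Different probe sets of 1 gene mostly gave small differences, and in some genes their signs disagreed. Several probe sets read 49 of the genes, and in 19 of these the signs were mixed. That count takes differences of any size, including those under the rounding step of 0.01, as for Ndufv1 (-0.0050 to 0.030). In 4 genes the mixed signs lay over 0.2 apart: Ndufab1 (-0.385 to 0.010), Uqcrq (-0.10 to 0.25), Ndufa12 (-0.20 to 0.050) and Cox8c (-0.17 to 0.070). Cox5b had an equally wide range with 1 sign, from 0.0050 to 0.40 over 6 probe sets. The highest value came from a probe set under the lower quartile of levels, with 4.73 and 5.14 in KO against 4.50 and 4.57 in WT (SE 0.15, adjusted p 1 in limma), and its unadjusted p was under 0.05. Ndufab1 is the acyl carrier protein and also a complex I subunit. Its probe set with -0.385 measured 7.34 and 6.83 in KO, against 7.45 and 7.49 in WT. The second KO array alone made most of that gap. The mean level of that probe set was 7.28 and that of the Ndufab1 one at 0.010 was 5.235, against 12.11 for the brightest. For Uqcrq the level was 6.065 (0.25) against 11.585, for Ndufa12 5.04 (-0.20) against 13.00, and for Cox8c 7.35 (-0.17) against 8.255. The other bright Ndufa12 probe sets differed by -0.0050 and -0.035. Of all 170 probe sets 95 were lower in KO, 67 higher and 8 equal, with a median of -0.015, against 0.0000 over all probe sets. In limma 0 of the 170 passed the adjusted threshold, as 0.00444% of all probe sets did, and 4 had an unadjusted p under 0.05, where 3.42% of all did. Both KO arrays lay below both WT arrays for 35 of them (20.6%), where 13.2% of all probe sets had that order, and above for 23 (13.5%), where 13.9% did. Over all probe sets 27.1% separated in either direction. Several of the brightest probe sets, such as those of Cox5b and Ndufa12, are of a design that shares probes with related sequences, so signals of near-identical copies cannot be kept apart.

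**Figure D4:**
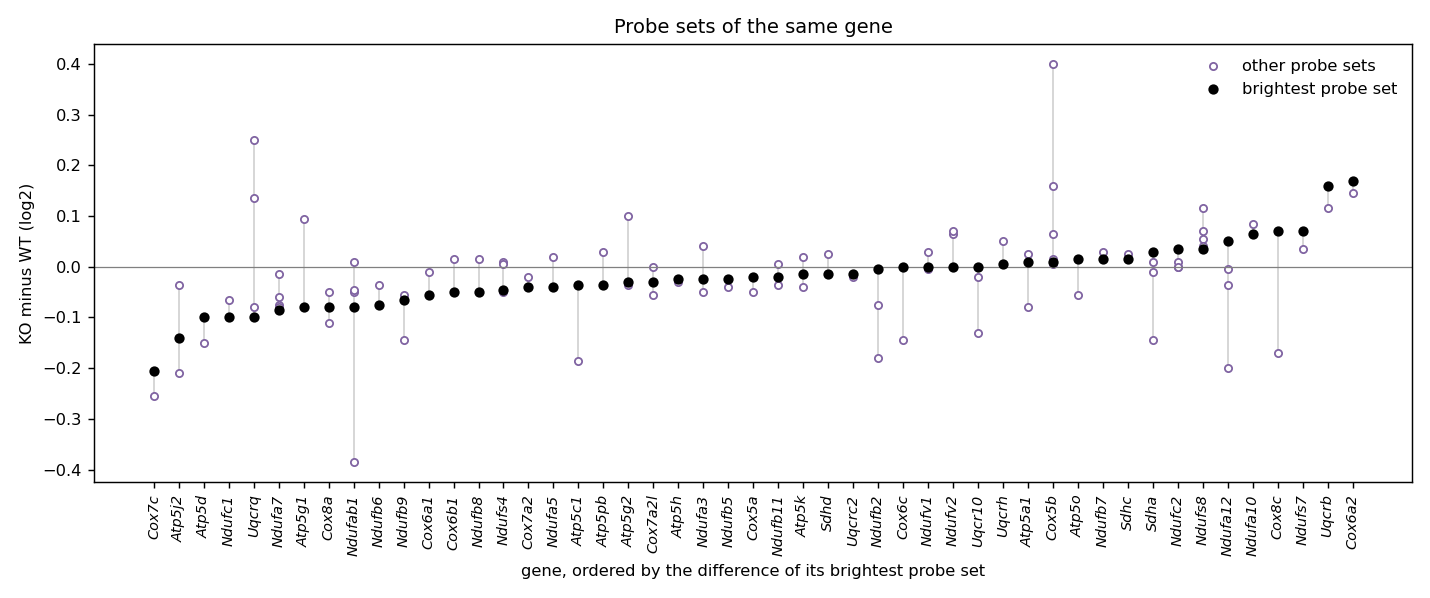
KO minus WT difference (vertical axis, log2 units) of every probe set of the 49 genes with more than 1, ordered along the horizontal axis by the brightest probe set (black points; other probe sets are open circles). Cox7c, Atp5j2, Uqcrb and Cox6a2 keep 1 sign over their probe sets, while Ndufab1, Uqcrq, Ndufa12 and Cox8c do not.

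Genes that build, regulate or feed the respiratory chain gave 0 calls in limma as well. Of 41 assembly factors measured 18 were higher in KO and 22 lower, with a median of -0.010. Sco2, which delivers copper to complex IV, measured 8.30 and 8.56 in KO, against 8.09 and 8.08 in WT, a difference of 0.345 (SE 0.11, adjusted p 1 in limma), the largest of that list and its only member with an unadjusted p under 0.05. Uqcc2, an assembly factor of complex III, differed by -0.17 (SE 0.078) and Coa7, of complex IV, by -0.165 (SE 0.092). Of 18 regulators 7 were higher and 10 lower, with a median of -0.015. Gabpa, the DNA-binding subunit of GABP, measured 9.43 and 9.35 in KO, against 9.49 and 9.54 in WT, a difference of -0.125 (SE 0.075). Polg2, a subunit of the mitochondrial DNA polymerase, differed by 0.135 (SE 0.084) and Slirp, which stabilises mitochondrial transcripts, by 0.12 (SE 0.072).

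The list for the tricarboxylic acid cycle, whose enzymes supply NADH and succinate, also held genes of pyruvate dehydrogenase, which feeds the cycle. All its genes lay within 0.065 of 0. Of 15 measured 6 were higher in KO and 9 lower, with a median of -0.010. The farthest from 0 were Dlst (0.065), Fh1 (0.060) and Suclg1 (0.050). Of 14 glycolytic genes 3 were higher in KO, 10 lower and 1 equal, with a median of -0.020. Eno2, the neuronal enolase, differed by -0.080 (SE 0.070), Tpi1 by -0.075 and Pgam1 by -0.055. Of 13 carriers and porins 8 were higher and 5 lower, with a median of 0.015 and with Slc25a27 (-0.11), Slc25a13 (0.105) and Mpc1 (-0.095) farthest from 0. Cycs, the somatic cytochrome c, differed by -0.030 (SE 0.082). ND5, a complex I subunit encoded in mitochondrial DNA and the 1 such gene analysed here, measured 13.74 and 13.55 in KO, against 13.63 and 13.63 in WT. The mean log2 level of the neuron markers was 12.19 and 12.16 in KO and 12.19 and 12.20 in WT, and that of the oligodendrocyte markers 11.60 and 11.52 in KO and 11.43 and 11.51 in WT. Their part in the respiratory chain values was not tested.

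**Figure D5:**
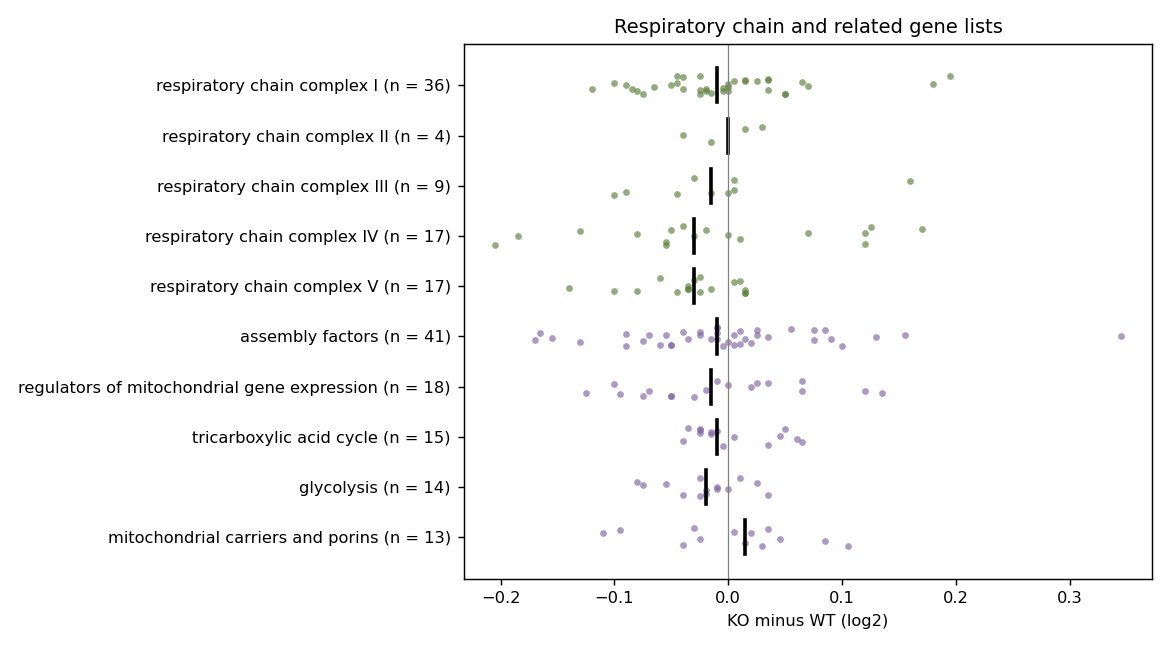
KO minus WT difference (horizontal axis, log2 units) of each gene in the 5 complexes (green) and in 5 related lists (purple), with n measured genes beside each list and black bars at the medians. All medians lie between -0.030 and 0.015.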

How the data were processed

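The deposited table holds log2 levels, 1 for each probe set on each array; per the submitters' processing notes the authors used RMA, whose software and settings are unstated there. Biotin-labelled RNA was made from 100 ng total RNA with a 3′ kit and hybridised to 1-colour Affymetrix arrays, per the labels' protocols. Of 45101 rows, 64 control probe sets were left out. The platform annotation named 34945 probe sets by 1 gene, 932 by several and 9160 not at all; RefSeq changed 0 of the 83 symbols.

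KO was compared with WT over all 45037 probe sets in limma 3.58.1 (R 4.3.3, lmFit, eBayes, two-sided, Benjamini-Hochberg, threshold 0.05), with 2 residual and 2.74 prior degrees of freedom. The fit was also run on simulated levels with 200 probe sets changed by known amounts. Those amounts were all larger than any member difference, so the fit was not tried at differences of the size reported here. With 2 mice per genotype, the smallest two-sided p of an exact permutation test is 0.333. The number of arrays limits the precision; depth does not apply. Python 3.11.15 with pandas 2.3.3 summarised the members.

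The members and lists were chosen with earlier results of these data known. Named were the 3 brightest genes per complex, the 5 non-overlapping genes per direction with the smallest p, isoform families, the catalytic core, Bcas1, up to 5 genes with discordant probe sets, and up to 3 genes per related list; genes outside this are marked or were shown for the promoter motif or as not overlapping. Alternatives were 2 other normalizations, a filter on dim probe sets, another variance model, a replicate block, averaged probe sets, another assignment of Ndufa4, and leaving out each array.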

Additional observations from a re-analysis of the deposited data

How the results depend on the processing

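No respiratory chain gene passed the adjusted threshold in limma under any alternative run (0 each, with 0 to 5 at an unadjusted p under 0.05), while the number of probe sets called over the whole table was 2 with all arrays, 1 without dim probe sets, 10 with an intensity trend and robust variance, and 0 with any 1 array left out. With the replicate number as a block 0 probe sets were called; the numbers are not stated to pair mice, and the deviations of same-numbered arrays correlated at 0.241 over 45037 probe sets. Leaving out 1 array gave medians of -0.035 to 0.0050 for all 83 genes, -0.0225 to 0.010 for complex I, -0.075 to 0.0050 for complex III, -0.075 to -0.0050 for complex IV and -0.045 to 0.0050 for complex V. The gap between the median of the 83 genes and that of all genes ran from -0.030 to -0.020 over all settings. Some settings could not move it. The other variance model and the replicate block leave every difference unchanged, and centring each array on its median shifts all genes alike. The gap was -0.025 in each of these. No setting moved the median of all genes by over 0.1. Of 575 values of 58 genes, 23, of 16 genes, turned in direction. A turn was counted only where both differences were at least 0.01, the step to which the table is rounded. The other 552 were not counted as turned, which takes in any value under that step. They also take in the values under the other variance model and the replicate block, which could not turn. With probe sets averaged, the turned values were -0.015 (Atp5a1), 0.012 (Atp5g2), -0.050 (Cox8c), -0.048 (Ndufa12), -0.029 (Sdha) and 0.051 (Uqcrq), and with quantile normalization repeated -0.014 (Atp5g3). With 1 array left out, the ranges were -0.030 to 0.050 (Atp5a1), -0.010 to 0.040 (Atp5b), -0.10 to 0.040 (Atp5g2), -0.015 to 0.045 (Atp5g3), -0.045 to 0.015 (Atp5k), -0.030 to 0.050 (Cox5b), -0.115 to 0.355 (Cox6b2), -0.075 to 0.015 (Cyc1), -0.050 to 0.010 (Ndufa1), -0.040 to 0.10 (Sdha), -0.105 to 0.025 (Sdhb), -0.010 to 0.040 (Sdhc) and -0.045 to 0.015 (Sdhd). The cause of these turns was not tested.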
